A study of Drosophila melanogaster with 10 samples.

Results

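The genes described here are the nuclear genes for proteins of the mitochondrial ribosome of Drosophila melanogaster. They were chosen by name alone, as every gene whose deposited symbol begins with mRpL or mRpS followed by a digit. The rule found 72 of the 14210 genes listed, of which 46 carry a large subunit name (mRpL) and 26 a small subunit name (mRpS). Their RNA was measured in neuroblasts, the stem cells of the fly nervous system, sorted from central brains. The study set out to compare these cells before and after the onset of metamorphosis, and with the Mediator subunit gene med27 knocked down. The groups were med27 RNAi pupae, wild-type pupae and wild-type larvae, with 2 biological replicates each and 2 technical runs, averaged here, of each pupal replicate. In the RNAi pupae, inscuteable-Gal4 drove UAS-CD8::GFP (a membrane-bound GFP) and a med27 RNAi construct (VDRC TID:106703). Both wild-type groups had the same driver and UAS-CD8::GFP, with landing site VIE-260B left empty (VDRC TID:60100), so driver and GFP are common to all 3 groups. Egg laying lasted 24 h and rearing was at 29 °C, for 6 days to pupae of 0 to 2 h or 5 days to larvae of the last instar. Cells with high GFP and large size were collected by flow cytometry, and inscuteable-Gal4 is a neuroblast driver, so what the sort held depends on that driver and gate. The labels do not say whether replicates came from separate cultures, so p-values measure only the spread between these samples.

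Mitochondria keep a small genome that encodes core subunits of the respiratory chain and of ATP synthase, and the mitochondrial ribosome translates these few messages. Its ribosomal RNAs come from the mitochondrial genome, but its proteins are encoded in the nucleus, made by cytosolic ribosomes and imported. The large subunit (39S in animals) carries the peptidyl transferase centre and the exit tunnel, and the small subunit (28S) decodes the message. Many of its proteins descend from bacterial ribosomal proteins, and others were added in mitochondria. By number alone, 43 of the 72 genes were classed as having a bacterial counterpart and 29 as of mitochondria only. Sequence and structure were not used, so single genes may be misplaced. In the mammalian structure the counterparts of mRpS30 and mRpS18A sit in the large subunit despite their names.

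Levels are FPKM, fragments scaled to transcript length and library size, so they can be set against each other between genes. Changes are log2 fold changes of FPKM + 1 with their standard error (SE) from limma, fitted over the 6992 genes with a mean of at least 1 FPKM, and a change is called at an adjusted p below 0.05. All 72 genes passed that filter and reached 1 FPKM in every replicate. From the error bounds in the deposited tables, larval libraries held 18201540 and 18071041 fragments and pupal runs 27127940 to 31193266, with 297 to 6122 fragments behind a value of these genes, a counting error of 1.28 to 5.8%. MED27 itself was at 5.33 and 3.99 FPKM in RNAi pupae, against 31.5 and 27.4 FPKM in wild-type pupae and 31.7 and 38.3 FPKM in larvae, a change of -2.43 against wild-type pupae (limma adjusted p = 0.000522). The 8 neuroblast markers were all at 1 FPKM or more in every group and summed to 1710 and 1680 FPKM in RNAi pupae, 1910 and 1960 in wild-type pupae and 1550 and 1460 in larvae. Neuron markers (8) summed to 77.0 and 78.4 FPKM in RNAi pupae, 77.8 and 155 in wild-type pupae and 26.6 and 22.1 in larvae. Of these, 5 of the 5 kept were called higher in wild-type pupae than in larvae, and 3 with the length trend described below removed. Of the 8 neuroblast markers 4 were called higher in wild-type pupae than in larvae (22.7% of all genes). In RNAi against wild-type pupae 2 were lower (8.64% of all genes). With the trend removed these were 2 higher and 1 lower, and 3 lower. Glial markers (7) summed to 153 to 194 FPKM, haemocyte markers (5) to 1.13 FPKM at most and fat body markers (6) to 2.2 FPKM at most in any replicate. Of 4 glial markers kept, 1 was lower in RNAi than in wild-type pupae in both forms. Against larvae 1 was lower and 2 higher in RNAi pupae (1 and 1 with the trend removed). The part of these other cell types in the results below was not tested.

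All 72 genes were well expressed, and as a set they were lowest in wild-type pupae. Their levels ran over a 9.01-fold span of larval means, and their summed level was 7077 and 6865 FPKM in RNAi pupae, 5133 and 5037 FPKM in wild-type pupae, and 7001 and 7703 FPKM in larvae. In this sum RNAi and larval replicates overlapped. As a share of all FPKM the sums were 0.997 and 1.01% in RNAi pupae, 0.741 and 0.744% in wild-type pupae and 0.919 and 0.946% in larvae. Median levels were 90.0 and 85.9 FPKM in RNAi pupae, 66.8 and 62.6 FPKM in wild-type pupae and 84.0 and 94.2 FPKM in larvae. The genes also differed least among themselves in wild-type pupae, where the SD of log2 FPKM over the 72 genes was 0.55 and 0.551, against 0.658 and 0.668 in RNAi pupae and 0.633 and 0.635 in larvae. Fewer cells with these transcripts and less RNA per cell cannot be told apart in such bulk samples.

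Both subunits contributed alike to this order. The 46 large subunit genes summed to 4616 and 4442 FPKM in RNAi pupae, 3390 and 3272 in wild-type pupae and 4643 and 5108 in larvae. The 26 small subunit genes summed to 2461 and 2423 FPKM in RNAi pupae, 1743 and 1765 in wild-type pupae and 2359 and 2594 in larvae. Among large subunit genes the highest means over the 6 replicates were those of mRpL53 (233.1 FPKM), mRpL33 (206.5 FPKM), whose bacterial counterpart is a small protein near the exit site, and mRpL12 (170.0 FPKM), the stalk protein that bacteria carry in several copies. The lowest were mRpL10 (37.4 FPKM), which anchors mRpL12 at the base of the stalk, and mRpL3 (38.9 FPKM), a core protein of the large subunit. The RNA of the stalk protein stood well above that of its anchor in every group, with 189 and 190 FPKM for mRpL12 and 40.8 and 42.6 FPKM for mRpL10 in RNAi pupae, 134 and 137 against 32.1 and 28.8 FPKM in wild-type pupae, and 174 and 196 against 35.3 and 44.8 FPKM in larvae. Among small subunit genes mRpS16 (179.3 FPKM), mRpS21 (161.7 FPKM) and mRpS14 (126.7 FPKM) stood highest, and mRpS5 (33.9 FPKM) and mRpS23 (39.0 FPKM) lowest. The lowest gene, mRpS5, was at the 60.3rd percentile of all kept genes by mean level and the highest, mRpL53, at the 93.9th. The genes lie on the X chromosome (11) and on 2L (12), 2R (12), 3L (17) and 3R (20), and none on chromosome 4.

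**Figure D1:**
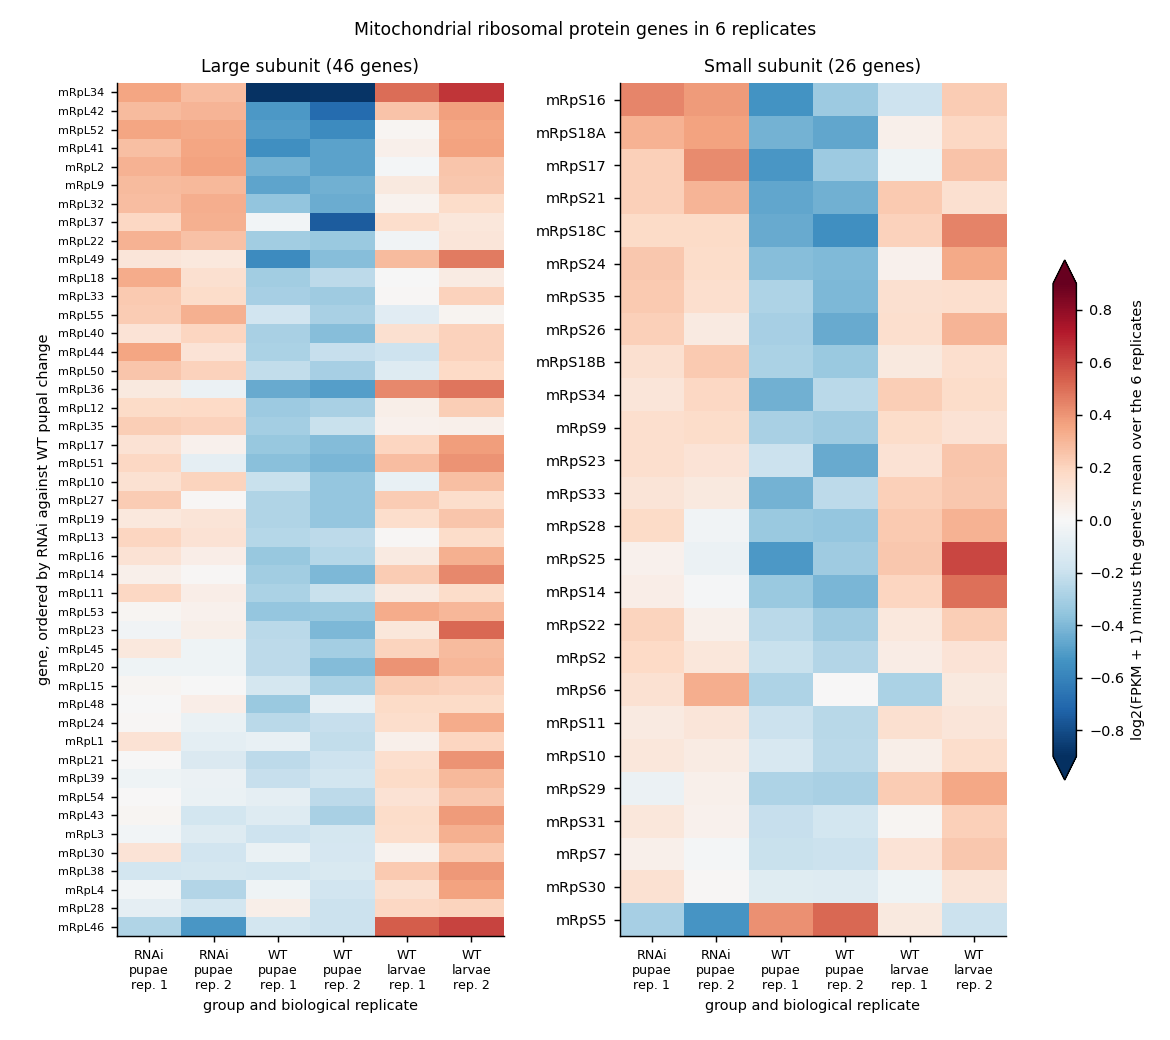
Heat map of the 72 mitochondrial ribosomal protein genes, large subunit left and small subunit right, in the 2 replicates each of med27 RNAi pupae, wild-type (WT) pupae and wild-type larvae. Colour is log2(FPKM + 1) minus the mean of that gene over the 6 replicates, red above and blue below. The wild-type pupal columns are blue for nearly all genes, with mRpS5 the clearest exception.

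In wild-type pupae, set against wild-type larvae, the genes were lower nearly throughout. As deposited, 62 of the 72 fell, mRpS5 rose, and 9 were not called. Over all genes tested 26.5% were called lower and 22.7% higher. The median change of the 72 was -0.49, against -0.07 over all genes. In 70 genes both pupal values lay below both larval values, which held for 43.3% of all genes, and in 1 gene above both, which held for 33.8%. As deposited, 39 of 46 large subunit genes fell (median -0.48). Of 26 small subunit genes 23 fell and 1 rose (median -0.50), to a like extent. Genes classed with a bacterial counterpart (38 of 43 fell, 1 rose, median -0.45) and as of mitochondria only (24 of 29 fell, median -0.51) also moved alike.

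The size of this fall depended on transcript length. These are short transcripts, with a median of 739 nt against 1967 nt over all kept genes, and the replicates leaned with length unequally. Slopes were taken on the deviation of log2 levels from each gene's mean over the 6 replicates, so they are relative to the other groups. Per doubling of length they were 0.00552 and 0.0464 in RNAi pupae, 0.0904 and 0.192 in wild-type pupae and -0.126 and -0.208 in larvae. After that trend was taken out of each replicate, using the genes outside the set, 20 of the 72 were still lower in wild-type pupae and 2 higher (mRpS5 and mRpL55), with a median of -0.13. Over all genes 15.7% were then called lower and 14.4% higher. All 20 were also called lower as deposited. With the trend removed, 15 of 46 large subunit genes were lower and 1 higher, and 5 of 26 small subunit genes lower and 1 higher (medians -0.13). Genes classed with a bacterial counterpart gave 9 of 43 lower and 1 higher (median -0.11). Those of mitochondria only gave 11 of 29 lower and 1 higher (median -0.19), and these differences were not tested. Whether the trend is technical was not tested, so most counts and changes of named genes are given in both forms.

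The genes that fell furthest did so in both forms. mRpL34 (FBgn0083983, 2R 11986498 to 11986842), the counterpart of a very small bacterial large subunit protein, was at 69.7 and 70.1 FPKM in wild-type pupae, against 185 and 204 FPKM in larvae. The pupal pair differed by less than 1 FPKM and lay far below the larval pair. The change was -1.46 (SE 0.08, limma adjusted p = 0.000403), and -0.92 with the length trend removed (adjusted p = 0.00287). Its transcript of 327 nt was the shortest of the set, and its locus overlaps CG8414 on the other strand, so its value is uncertain where counting ignored strand.

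Of the next genes, mRpL36 (FBgn0042112, 3L 8117684 to 8118213) overlaps no other listed locus. It encodes the counterpart of another very small bacterial protein, and it was at 103 and 99.7 FPKM in wild-type pupae, against 191 and 197 FPKM in larvae. It fell by 0.93 on the log2 scale (SE 0.08, limma adjusted p = 0.00131) and by 0.47 with the length trend removed (adjusted p = 0.00679). mRpL42, a large subunit protein of mitochondria only, was at 106 and 93.8 FPKM in wild-type pupae, against 182 and 197 FPKM in larvae, and fell by 0.92 (SE 0.09, limma adjusted p = 0.00132). mRpL49, another, was at 85.8 and 97.1 FPKM in wild-type pupae, against 155 and 176 FPKM in larvae, and fell by 0.85 (SE 0.09, limma adjusted p = 0.00157). Neither gene's groups overlapped, and with the length trend removed both still fell by 0.47 (adjusted p = 0.00561 for mRpL42 and 0.0144 for mRpL49).

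In the small subunit mRpS25, mRpS18C and mRpS14 fell most. mRpS25, found in mitochondria only, was at 71.0 and 81.5 FPKM in wild-type pupae, against 121 and 155 FPKM in larvae, a change of -0.84 (SE 0.13, limma adjusted p = 0.00272). mRpS18C, whose mammalian counterpart sits where S18 does in bacteria, was at 59.1 and 55.2 FPKM in wild-type pupae, against 94.1 and 111 FPKM in larvae, a change of -0.83 (SE 0.09, limma adjusted p = 0.0016). mRpS14, a small subunit protein with a bacterial counterpart, was at 98.2 and 93.0 FPKM in wild-type pupae, against 142 and 175 FPKM in larvae, a change of -0.72 (SE 0.11, limma adjusted p = 0.00256). In all 3 the groups stood apart, and all 3 were lower with the length trend removed (-0.43, -0.37 and -0.30, adjusted p = 0.0323, 0.0096 and 0.0233).

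The 3 paralogues of bacterial S18 did not move by equal amounts. Beside mRpS18C, mRpS18A fell by 0.56 (SE 0.08, limma adjusted p = 0.00221) and mRpS18B by 0.43 (SE 0.08, adjusted p = 0.00449), and with the length trend removed their values were -0.13 and -0.07 (adjusted p = 0.183 and 0.493). The difference between paralogues was not tested.

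Of 8 genes for core proteins chosen by role, 7 fell in wild-type pupae as deposited, and 1 of these, mRpL2, was still called lower with the length trend removed. Of all genes 26.5% were lower as deposited and 15.7% with the trend removed, so nothing about core proteins is read from the second count. In the large subunit mRpL2 fell by 0.56 (SE 0.10), mRpL16 by 0.50 (SE 0.10), mRpL3 by 0.41 (SE 0.09) and mRpL4 by 0.35 (SE 0.12), with limma adjusted p = 0.00424, 0.00612, 0.00869 and 0.0385. Their values with the trend removed were -0.25, -0.17, -0.14 and -0.04 (adjusted p = 0.0492, 0.159, 0.194 and 0.774). mRpL12 fell by 0.45 (SE 0.08, limma adjusted p = 0.00478), and its value with the trend removed was -0.07 (adjusted p = 0.481). In the small subunit mRpS9 (-0.45, SE 0.07), mRpS7 (-0.38, SE 0.08) and mRpS11 (-0.35, SE 0.07) fell as deposited (limma adjusted p = 0.00277, 0.00694 and 0.00752) and were not called with the trend removed (-0.19, -0.03 and 0.04, adjusted p = 0.0881, 0.751 and 0.732). The call of mRpL4 was lost without larval replicate 2 (-0.24, adjusted p = 0.173) or wild-type pupal replicate 1 (-0.42, adjusted p = 0.06) or 2 (-0.29, adjusted p = 0.175), and that of mRpS11 without wild-type pupal replicate 2 (-0.32, adjusted p = 0.0502). mRpS29, the fly counterpart of the GTP-binding protein DAP3, was at 50.7 and 50.1 FPKM in wild-type pupae, against 72.4 and 78.7 FPKM in larvae. It fell by 0.57 (SE 0.08, limma adjusted p = 0.00226) and by 0.34 with the trend removed (adjusted p = 0.0157).

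mRpS5 (FBgn0044510, 3L 24530335 to 24536634), a small subunit protein at the messenger entry site and the eighth core gene, went the other way. It was at 43.9 and 47.4 FPKM in wild-type pupae, against 34.8 and 28.6 FPKM in larvae, and the pupal pair was the higher. The change was 0.52 (SE 0.12, limma adjusted p = 0.0125), and 0.82 with the trend removed (adjusted p = 0.00891), by a length found through its symbol. Without larval replicate 2 it was 0.38 (adjusted p = 0.0605) and without wild-type pupal replicate 2 it was 0.47 (adjusted p = 0.0715). mRpL55 had 78.6 and 72.4 FPKM in wild-type pupae, against 82.8 and 90.2 FPKM in larvae. Its change as deposited was -0.19 (SE 0.09, limma adjusted p = 0.0953), and its sign turned to 0.29 with the trend removed (adjusted p = 0.0231). mRpS30 (-0.15, SE 0.09, adjusted p = 0.179) and mRpS6 (-0.04, SE 0.15, adjusted p = 0.84) were the other genes with the smallest changes, and with the trend removed they were at -0.05 (adjusted p = 0.613) and 0.39 (adjusted p = 0.0886). mRpS6 was at 43.6 and 53.1 FPKM in wild-type pupae, against 43.4 and 56.5 FPKM in larvae, and its groups overlapped.

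Leaving out each replicate in turn left 49 to 63 genes lower, and 45 of the 62 passed every time. The authors' deposited table, which holds genes below an adjusted p of 0.01, lists 21 of the 72 as lower and mRpS5 as higher, where 5.11% of the genes tested were lower and 12.2% higher. It gives a log2 fold change of -1.07 for mRpL34, the most negative of the 72 it lists, and 0.76 for mRpS5, both in the authors' deposited table.

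In med27 RNAi pupae, set against wild-type pupae of the same age, most of the genes were higher. As deposited 51 of the 72 rose, mRpS5 fell and 20 were not called, and over all genes 19.6% were called higher and 8.64% lower. The median change was 0.42, against 0.05 over all genes. Both RNAi values lay above both wild-type values in 64 genes, which held for 42.7% of all genes, and below both in mRpL46 and mRpS5, which held for 28.7%. With the length trend removed 18 rose and 2 fell (mRpS5 and mRpL46), with a median of 0.15, where 14.2% of all genes were called higher and 12.9% lower. All 18 had also risen as deposited. Of the large subunit genes 30 of 46 rose as deposited and 10 with the trend removed, and of the small subunit genes 21 of 26 rose and 8 with the trend removed.

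The number called rested on few libraries. It was 24 without RNAi replicate 1, 29 without RNAi replicate 2 and 29 without wild-type pupal replicate 2, and 21 of the 51 passed whichever replicate was left out. All 51 kept their direction each time. The genes described next passed each time unless a value is given.

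mRpL34 had the most positive change, as it had the most negative in the comparison of wild-type stages, and these comparisons share the wild-type pupal samples. It was at 167 and 158 FPKM in RNAi pupae, against 69.7 and 70.1 FPKM in wild-type pupae. The RNAi pair lay far above the wild-type pair, and the change was 1.20 (SE 0.08, limma adjusted p = 0.000522), or 0.65 with the length trend removed (adjusted p = 0.00211). mRpL42 was at 186 and 189 FPKM in RNAi pupae, against 106 and 93.8 FPKM in wild-type pupae, and rose by 0.90 (SE 0.09, limma adjusted p = 0.00123). mRpL52 (FBgn0033208, 2R 3561226 to 3561908), a large subunit protein of mitochondria only whose locus overlaps no other, was at 108 and 107 FPKM in RNAi pupae, against 59.3 and 56.7 FPKM in wild-type pupae. It rose by 0.88 (SE 0.11, limma adjusted p = 0.00242), and both genes rose by 0.50 with the trend removed (adjusted p = 0.00295 for mRpL42 and 0.0066 for mRpL52).

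Of the 4 large subunit core genes chosen by role, mRpL2, whose bacterial counterpart supports the peptidyl transferase centre, had the most positive change. It was at 112 and 116 FPKM in RNAi pupae, against 66.8 and 64.3 FPKM in wild-type pupae, a rise of 0.79 (SE 0.10, limma adjusted p = 0.0023) that length left at 0.60 (adjusted p = 0.00312). The others gave smaller values, and the difference between them was not tested. mRpL16 rose by 0.39 (SE 0.10, limma adjusted p = 0.0229), with a value of 0.18 with the trend removed (adjusted p = 0.153), and the call was lost without any 1 pupal replicate (adjusted p = 0.0684 to 0.124). mRpL3 was at 37.9 and 35.5 FPKM in RNAi pupae, against 33.8 and 34.5 FPKM in wild-type pupae, a change of 0.10 (SE 0.09, limma adjusted p = 0.424) that turned to -0.05 with the trend removed (adjusted p = 0.664). mRpL4, a core protein that reaches towards the exit tunnel, was at 45.0 and 38.0 FPKM in RNAi pupae, against 44.6 and 40.7 FPKM in wild-type pupae, with overlapping groups and a change of -0.04 (SE 0.12, adjusted p = 0.807; -0.25 with the trend removed, adjusted p = 0.0744). mRpL22, which lines the exit tunnel, was at 145 and 140 FPKM in RNAi pupae, against 94.0 and 92.2 FPKM in wild-type pupae, and rose by 0.61 (SE 0.08, limma adjusted p = 0.00257) and by 0.39 with the trend removed (adjusted p = 0.00576).

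Of the stalk, mRpL12 rose by 0.48 (SE 0.08, limma adjusted p = 0.00622), and its value with the trend removed was 0.19 (adjusted p = 0.0874). mRpL10 (0.44, SE 0.12, limma adjusted p = 0.0342) and mRpL11 (0.37, SE 0.08, adjusted p = 0.0177) passed only with all 6 replicates or with those of larvae left out. For mRpL10 the adjusted p was 0.0576 to 0.161 when any pupal replicate was left out, and for mRpL11 it was 0.0537 to 0.128. With the trend removed mRpL10 was at 0.21 (adjusted p = 0.142) and mRpL11 at 0.07 (adjusted p = 0.539).

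In the small subunit mRpS16, whose bacterial counterpart takes part in small subunit assembly, rose most. It was at 236 and 227 FPKM in RNAi pupae, against 119 and 138 FPKM in wild-type pupae, a change of 0.84 (SE 0.14, limma adjusted p = 0.00595), or 0.45 with the trend removed (adjusted p = 0.038). The S18 paralogues rose by 0.79 for mRpS18A, 0.67 for mRpS18C and 0.50 for mRpS18B (SE 0.08, 0.09 and 0.08, limma adjusted p = 0.00127, 0.00343 and 0.0047). With the trend removed they changed by 0.42, 0.27 and 0.23, and mRpS18B was then not called (adjusted p = 0.0583). mRpS18A was at 142 and 147 FPKM in RNAi pupae, against 84.7 and 82.2 FPKM in wild-type pupae, and overlaps no other locus. mRpS9, whose bacterial counterpart reaches the P site of the small subunit, was at 119 and 120 FPKM in RNAi pupae, against 87.3 and 85.4 FPKM in wild-type pupae. It rose by 0.47 (SE 0.07, limma adjusted p = 0.00392), and by 0.33 with the trend removed (adjusted p = 0.0171).

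mRpS5 was again the exception. It was at 26.5 and 22.4 FPKM in RNAi pupae, against 43.9 and 47.4 FPKM in wild-type pupae, and fell by 0.88 (SE 0.12, limma adjusted p = 0.00334) and fell by 1.06 with the trend removed (adjusted p = 0.00348). The call held whichever replicate was left out. mRpL46 (FBgn0035272, 3L 1777441 to 1778347), a large subunit protein of mitochondria only, was at 63.2 and 53.0 FPKM in RNAi pupae, against 68.1 and 66.9 FPKM in wild-type pupae. Its change was -0.22 (SE 0.10, limma adjusted p = 0.134), and it was called only with the trend removed (-0.45, adjusted p = 0.01). mRpL38 (-0.01, SE 0.08, adjusted p = 0.917), mRpL4 and mRpL28 (-0.05, SE 0.10, adjusted p = 0.716) were nearest to 0, at -0.13, -0.25 and -0.22 with the trend removed (adjusted p = 0.189, 0.0744 and 0.081), with 49.6 and 49.8 FPKM for mRpL38 in RNAi pupae, against 49.7 and 50.6 FPKM in wild-type pupae.

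mRpL37, a large subunit protein of mitochondria only, showed the widest gap between replicates. It was at 101 and 111 FPKM in RNAi pupae, against 87.3 and 52.5 FPKM in wild-type pupae and 99.3 and 95.2 FPKM in larvae. The second wild-type pupal replicate was the low sample, 0.72 below the first on the log2 scale. Its change in RNAi against wild-type pupae was 0.64 (SE 0.20, limma adjusted p = 0.0546; 0.51 with the trend removed, adjusted p = 0.0912), 1.00 without wild-type pupal replicate 1 (adjusted p = 0.00471) and 0.28, not called, without replicate 2. Against larvae, its wild-type pupal change was -0.51 (adjusted p = 0.0711; -0.26 with the trend removed, adjusted p = 0.325), -0.88 without replicate 1 (adjusted p = 0.00415) and -0.15, not called, without replicate 2. Nearest to the threshold, on its inner side, was mRpL20 with 0.28 (SE 0.09, limma adjusted p = 0.05 after rounding). The loss of any pupal replicate ended this call (changes of 0.20 to 0.35). The sign of the change turned to -0.08 with the trend removed (adjusted p = 0.539).

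**Figure D2:**
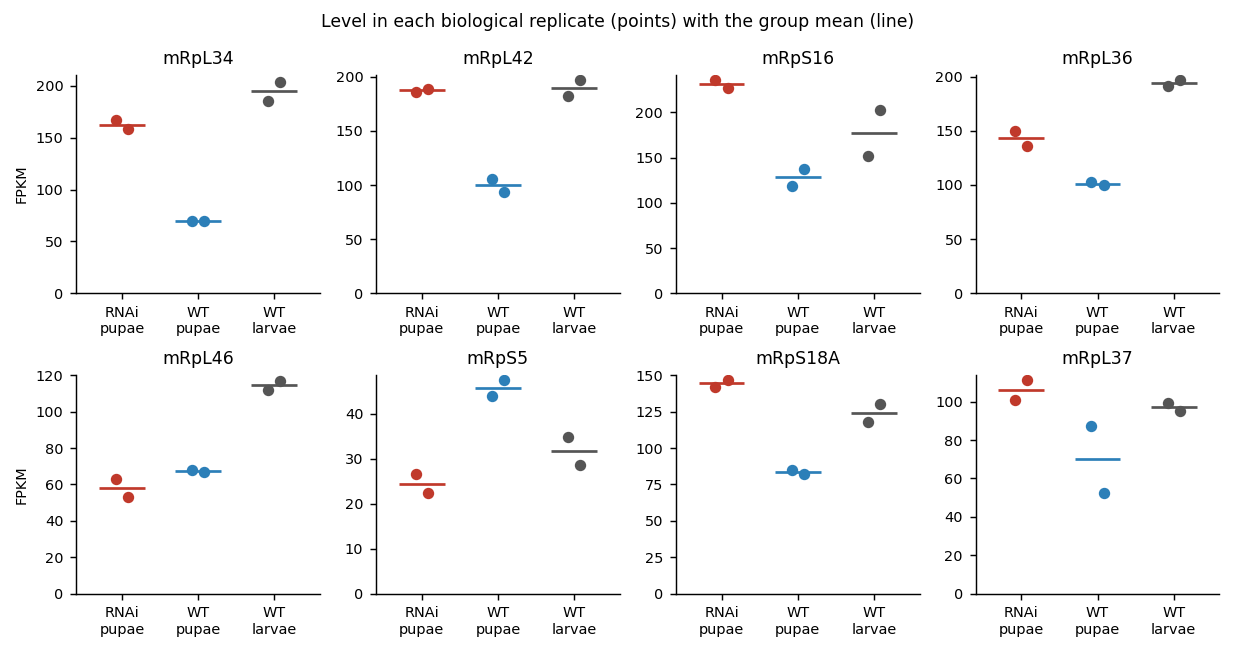
FPKM of 8 genes in each replicate (points) with the group mean (line), for med27 RNAi pupae, wild-type (WT) pupae and wild-type larvae; each panel has its own axis from 0. mRpL34, mRpL42 and mRpS18A were lowest in wild-type pupae, mRpS5 was highest there, mRpL46 was near its wild-type pupal level in RNAi pupae, and the wild-type pupal values of mRpL37 were 87.3 and 52.5 FPKM.

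The authors' deposited table for this comparison lists 27 of the 72 as higher in RNAi pupae and mRpS5 as lower, where 6.92% of the genes tested were higher and 6.67% lower. In the authors' deposited table the most positive log2 fold changes of the 72 were 1.01 for mRpL34, 0.86 for mRpL42 and for mRpL52, 0.81 for mRpS16 and 0.80 for mRpL2, and mRpS5 was at -0.83, with signs turned here to RNAi over wild type.

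Set against larvae, the RNAi pupae held these genes at levels near the larval ones for the most part. This comparison shares its samples with the others. As deposited 19 of the 72 were lower, 3 were higher (mRpL55, mRpL22 and mRpS18A) and 50 were not called, where 19.5% of all genes were lower and 27.8% higher. The median change was -0.06, against 0.05 over all genes. Both RNAi values lay below both larval values in 32 genes (34.2% of all genes) and above both in 13 (43.4%), and 27 genes overlapped. With the length trend removed 10 were lower and 11 higher, with a median of 0.03, where 22.4% of all genes were lower and 22.2% higher. The lower calls were a somewhat larger share than among all genes as deposited and a smaller share with the trend removed, so nothing about the set is read from them. The 10 were all lower as deposited too. A gene that was not called is not shown to be at the larval level.

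These counts moved with single replicates, to 6 lower and 10 higher without larval replicate 2, 7 and 0 without RNAi replicate 1, and 3 and 0 without RNAi replicate 2. Without larval replicate 1 no gene was called higher, and without either wild-type pupal replicate 1 was. The 3 genes called lower each time were mRpL46, mRpL38 and mRpL36. mRpL46 was at 63.2 and 53.0 FPKM in RNAi pupae, against 112 and 117 FPKM in larvae, with no overlap, and fell by 0.97 (SE 0.10, limma adjusted p = 0.000654), or by 0.86 with the trend removed (adjusted p = 0.000729). It was thus low in both pupal groups, as it had fallen by 0.75 in wild-type pupae against larvae (SE 0.10, adjusted p = 0.00186; -0.41 with the trend removed, adjusted p = 0.0139). mRpL38 was at 49.6 and 49.8 FPKM in RNAi pupae, against 65.9 and 73.5 FPKM in larvae, and fell by 0.48 (SE 0.08, limma adjusted p = 0.00345), or by 0.36 with the trend removed (adjusted p = 0.00663). mRpL36 was at 150 and 136 FPKM in RNAi pupae, against 191 and 197 FPKM in larvae, and fell by 0.44 (SE 0.08, limma adjusted p = 0.00422), or by 0.40 with the trend removed (adjusted p = 0.00496).

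The largest positive change was that of mRpS16, at 236 and 227 FPKM in RNAi pupae, against 152 and 203 FPKM in larvae. It was 0.39 (SE 0.14, limma adjusted p = 0.0523), 0.45 with the trend removed (adjusted p = 0.027) and 0.60 without larval replicate 2 (adjusted p = 0.012). mRpS16 is also the gene whose larval replicates lay furthest apart, by 0.42 on the log2 scale. mRpL55 was at 104 and 111 FPKM in RNAi pupae, against 82.8 and 90.2 FPKM in larvae, and rose by 0.31 (SE 0.09, limma adjusted p = 0.0213). mRpL22 (0.25, SE 0.08, adjusted p = 0.0369) and mRpS18A (0.23, SE 0.08, adjusted p = 0.048) also rose. All 3 calls were lost without RNAi replicate 1 (adjusted p = 0.0574, 0.18 and 0.137), without RNAi replicate 2 (0.155, 0.133 and 0.24) and without larval replicate 1 (0.0671, 0.0992 and 0.129), while with the trend removed all 3 passed (0.34, 0.36 and 0.29, adjusted p = 0.00793, 0.00444 and 0.0129). Those of mRpL22 and mRpS18A were also lost without wild-type pupal replicate 1 (adjusted p = 0.0553 and 0.069) or 2 (0.0551 and 0.0686).

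**Figure D3:**
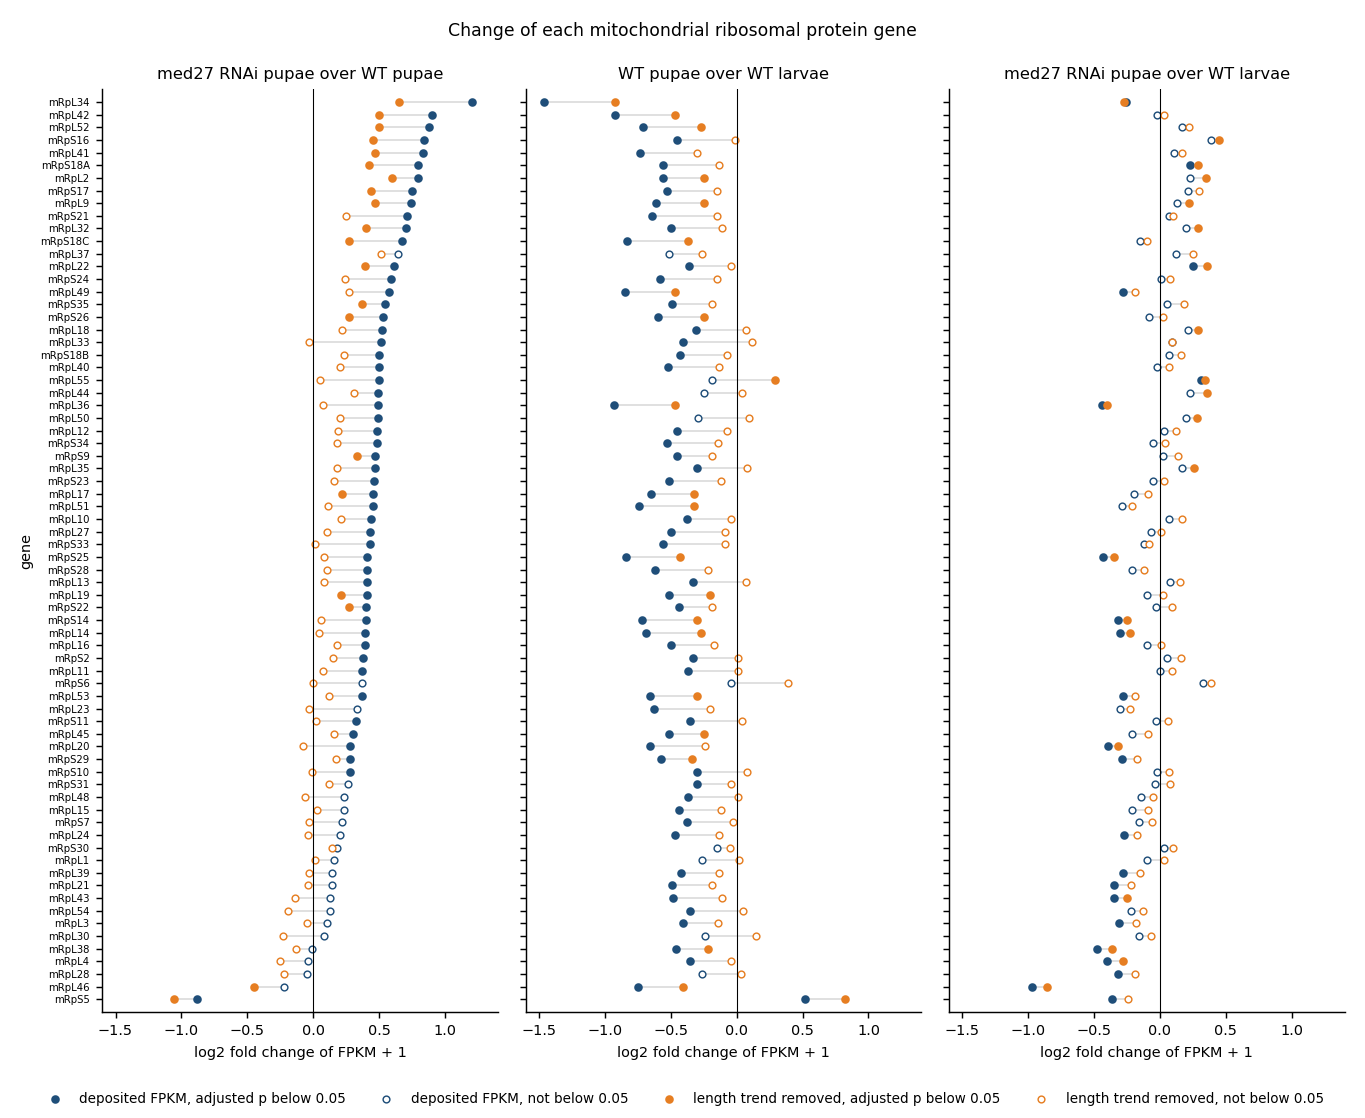
Log2 fold change of FPKM + 1 of each of the 72 genes in the 3 comparisons, ordered by the change in med27 RNAi over wild-type (WT) pupae, as deposited (blue) and with the length trend removed (orange); filled points have a limma adjusted p below 0.05 and a grey line joins the values of a gene. In wild-type pupae over larvae the orange points lie to the right of the blue ones, and 20 rather than 62 are filled on the lower side.

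Length ordered the changes within the set as well. Genes up to 600 nt (15) had a median of -0.63 in wild-type pupae against larvae, those over 600 and up to 900 nt (31) of -0.50, and those over 900 nt (26) of -0.44. In RNAi against wild-type pupae the medians were 0.67, 0.41 and 0.29 in the same classes. Across the 72 genes, which share libraries and are not independent replicates, the change correlated with log2 length at Pearson's r = 0.43 in wild-type pupae against larvae, -0.49 in RNAi against wild-type pupae and -0.15 in RNAi pupae against larvae. Other genes of like length moved the same way by less. In wild-type pupae against larvae, the medians of the other genes were -0.46 up to 600 nt (254 genes), -0.37 over 600 and up to 900 nt (570 genes) and -0.30 over 900 and up to 1500 nt (1458 genes), where the 25 members in the last class had -0.44. In RNAi against wild-type pupae they were 0.44, 0.30 and 0.15, where the 25 members had 0.30. These medians are descriptions without a test.

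**Figure D4:**
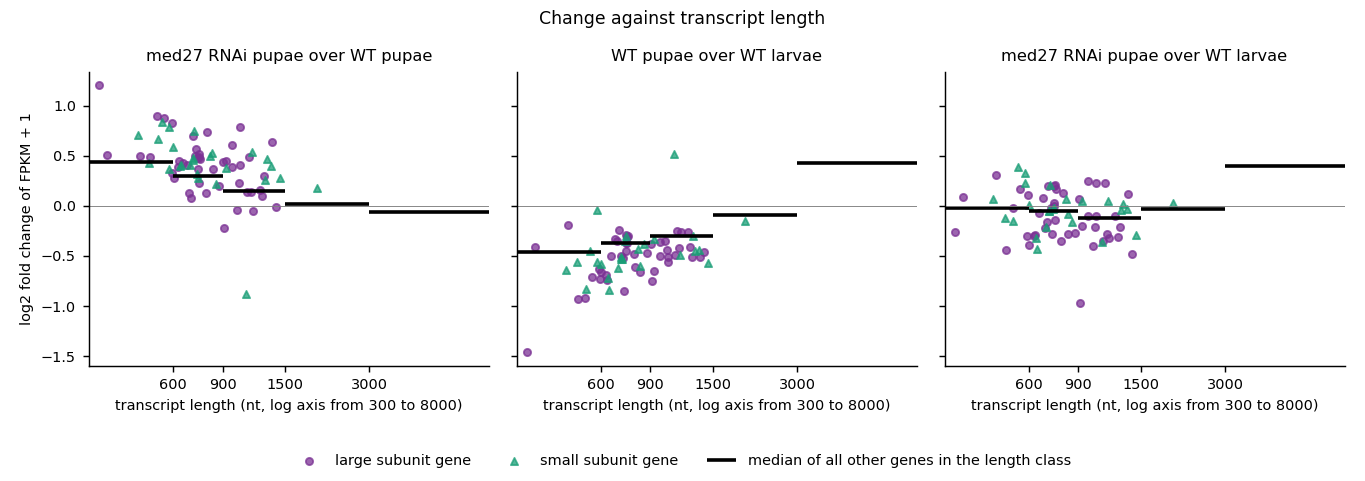
Log2 fold change of FPKM + 1 against transcript length (log axis) for the large (circles) and small (triangles) subunit genes in the 3 comparisons, with black bars at the median of all other kept genes in each length class. In the first 2 panels the bars follow length, and most of the 72 genes lie above the bars in RNAi over wild-type (WT) pupae and below them in wild-type pupae over larvae.

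The counts were also split by overlap between loci. Of the 72 loci, 40 overlap another listed locus, and counting by strand is not stated for the deposited values. Besides mRpL34 they include mRpL42, mRpS25, mRpS18C, mRpS16 and mRpL2, each overlapped on the other strand, so the same uncertainty holds for their values. It also holds for mRpS21, mRpS9, mRpL4, mRpL28, mRpS11, mRpL11, mRpS18B and mRpS23, overlapped in the same way. mRpL53, the gene with the highest mean level, overlaps AGO1 on the other strand and CG33155 on its own. For mRpL53 counting by strand would not remove the uncertainty. In wild-type pupae against larvae 35 of these 40 fell (median -0.46) and 27 of the other 32 (median -0.50). In RNAi against wild-type pupae 30 of the 40 rose (median 0.45) and 21 of the other 32 (median 0.39). With the length trend removed, 9 of the 40 fell in wild-type pupae against larvae (median -0.12). Of the other 32, 11 then fell and 2 rose (median -0.16). In RNAi against wild-type pupae 11 of the 40 then rose (median 0.17), and of the other 32, 7 rose and 2 fell (median 0.08).

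Further proteins of the mitochondrial ribosome carry other names. bonsai, which encodes the S15 protein of the small subunit, was at 174 and 183 FPKM in RNAi pupae, against 110 and 114 FPKM in wild-type pupae and 167 and 179 FPKM in larvae. It fell by 0.63 in wild-type pupae against larvae (limma adjusted p = 0.00172) and rose by 0.67 in RNAi against wild-type pupae (adjusted p = 0.00171), and both calls held with the trend removed (-0.30 and 0.46, adjusted p = 0.0281 and 0.00707). tko (technical knockout), which encodes the S12 protein of the decoding centre, was at 27.9 and 23.7 FPKM in RNAi pupae, against 29.6 and 33.7 FPKM in wild-type pupae and 37.6 and 42.8 FPKM in larvae. RNAi pupae were the lowest group. Its change in RNAi against wild-type pupae was -0.29 (limma adjusted p = 0.11), and with the trend removed it was called lower (-0.46, adjusted p = 0.0237), where 18 of the 72 rose and 2 fell. tko fell by 0.62 in RNAi pupae against larvae (limma adjusted p = 0.00516; -0.50 with the trend removed, adjusted p = 0.0114) and by 0.34 in wild-type pupae against larvae (adjusted p = 0.0477), a call lost with the trend removed (-0.04, adjusted p = 0.804) and without any replicate but larval replicate 1 (adjusted p = 0.053 to 0.202).

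The factors that load, move and release this ribosome were followed beside its proteins. Of 8 translation factors 5 were lower in wild-type pupae than in larvae and 0 higher, and in RNAi against wild-type pupae 3 were higher and 0 lower (limma, adjusted p below 0.05). With the trend removed these were 2 and 2. Over all genes 26.5% were lower in the first comparison and 19.6% higher in the second, or 15.7% and 14.2% with the trend removed. As deposited, the higher calls of ico (mEFG1, 0.27) and CG4447 (mRRF1, 0.53) were lost without any 1 pupal replicate, and that of EfTuM held. Of the lower calls, those of CG12736 and CG5705 (mRF1) were lost without some single replicates. EfTuM, the main elongation factor Tu of mitochondria, which brings aminoacyl-tRNA to the ribosome, was at 271 and 279 FPKM in RNAi pupae, against 164 and 169 FPKM in wild-type pupae and 207 and 225 FPKM in larvae. It rose by 0.72 in RNAi against wild-type pupae (limma adjusted p = 0.0014; 0.66 with the trend removed, adjusted p = 0.00157), and RNAi pupae were the highest group. CG12736 (mEFTu2), a second elongation factor Tu gene, was at 21.2 and 16.9 FPKM in RNAi pupae, against 23.0 and 22.4 FPKM in wild-type pupae and 27.1 and 31.9 FPKM in larvae, with a change of -0.25 in RNAi against wild-type pupae (adjusted p = 0.187; -0.32 with the trend removed, adjusted p = 0.0672). CG12413 (mIF2), an initiation factor, was at 5.76 and 5.50 FPKM in RNAi pupae, against 5.29 and 6.46 FPKM in wild-type pupae and 9.41 and 10.8 FPKM in larvae. It fell in both pupal groups against larvae, by 0.74 in RNAi pupae (limma adjusted p = 0.00467) and by 0.69 in wild-type pupae (adjusted p = 0.00636), and with the trend removed the changes were -0.74 in RNAi pupae (adjusted p = 0.00431) and -0.67 in wild-type pupae (adjusted p = 0.0115).

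Of 15 genes listed with the mitochondrial aminoacyl-tRNA synthetases, 3 were lower and 1 higher in wild-type pupae than in larvae. In RNAi against wild-type pupae 1 was lower and 1 higher. The list includes the related gene Slimp, which was among the 3 lower (-0.56, limma adjusted p = 0.00323) and is not taken here to charge a tRNA. With the trend removed these were 5 lower and 0 higher, and 2 lower and 1 higher. Over all genes 26.5% were lower and 22.7% higher in wild-type pupae than in larvae as deposited, and 8.64% lower and 19.6% higher in RNAi than in wild-type pupae, so nothing about the synthetases is read from these counts. CG31739 (AspRS-m), which charges the aspartate tRNA, was at 90.5 and 93.6 FPKM in RNAi pupae, against 76.8 and 74.8 FPKM in wild-type pupae and 55.0 and 51.9 FPKM in larvae. It rose by 0.77 in RNAi pupae against larvae (limma adjusted p = 0.000613; 0.45 with the trend removed, adjusted p = 0.00261) and by 0.50 in wild-type pupae against larvae (adjusted p = 0.00259; 0.14 with the trend removed, adjusted p = 0.161). Of 9 mitochondrial transcription and ribosomal RNA factors 4 were lower and 0 higher in wild-type pupae than in larvae, and 0 lower and 2 higher in RNAi than in wild-type pupae (3 and 0, and 0 and 2, with the trend removed). With the trend removed 15.7% of all genes were lower in the first comparison and 14.2% higher in the second. As deposited, the lower calls of TFAM, mtTFB2 and mTerf3 were lost without some single replicates. The higher call of bsf was lost without any 1 pupal replicate. Among these 9 factors CG8021 (SLIRP2), a gene of the family whose mammalian member binds mitochondrial messages, had the most positive change of any gene named here. It was at 69.6 and 54.4 FPKM in RNAi pupae, against 14.1 and 12.1 FPKM in wild-type pupae and 15.0 and 23.4 FPKM in larvae, and rose by 2.16 in RNAi against wild-type pupae (limma adjusted p = 0.00119; 1.67 with the trend removed, adjusted p = 0.00157). The 13 protein genes of the mitochondrial genome were listed at 0 in every run, so the messages that this ribosome translates could not be followed here.

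Cytosolic ribosomal protein genes, the counterparts in the cytoplasm, gave other counts under RNAi. Of 92 listed, with a few germline-type copies among them, 87 passed the filter, and their median length (724 nt) was near that of the mitochondrial set. In wild-type pupae against larvae 67 of the 87 fell and 0 rose, with a median of -0.43 (-0.49 for the mitochondrial set), and 14 and 2 with the length trend removed. In RNAi against wild-type pupae 13 of the 87 fell and 4 rose, with a median of -0.19, where the mitochondrial set had 1, 51 and 0.42. With the trend removed 75 fell and 2 rose, with a median of -0.48, where the mitochondrial set had 2, 18 and 0.15. Against larvae, 75 of the 87 were lower in RNAi pupae and 3 higher, with a median of -0.66 (76, 3 and -0.55 with the trend removed). Of all genes 26.5% were lower and 22.7% higher in the first comparison (15.7% and 14.4% with the trend removed). In the second 8.64% were lower and 19.6% higher (12.9% and 14.2%), and in the third 19.5% and 27.8% (22.4% and 22.2%). Summed, the 92 genes held 23.8 and 22.1% of all FPKM in RNAi pupae, 27.5 and 25.5% in wild-type pupae and 31.4 and 31.9% in larvae, so that wild-type pupae lay between the other groups. For the mitochondrial set wild-type pupae were the lowest group. The difference between the families was not tested.

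Genes of respiratory complex I, whose core subunits in the mitochondrial genome need this ribosome, gave counts nearer to those of the mitochondrial set. Of 32 kept, 30 fell and 0 rose in wild-type pupae against larvae (median -0.53), and 27 rose and 0 fell in RNAi against wild-type pupae (median 0.50). With the length trend removed 9 fell and 0 rose, and 10 rose and 1 fell (medians -0.19 and 0.18). Of all genes 26.5% were lower in the first comparison and 19.6% higher in the second, or 15.7% and 14.2% with the trend removed.

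**Figure D5:**
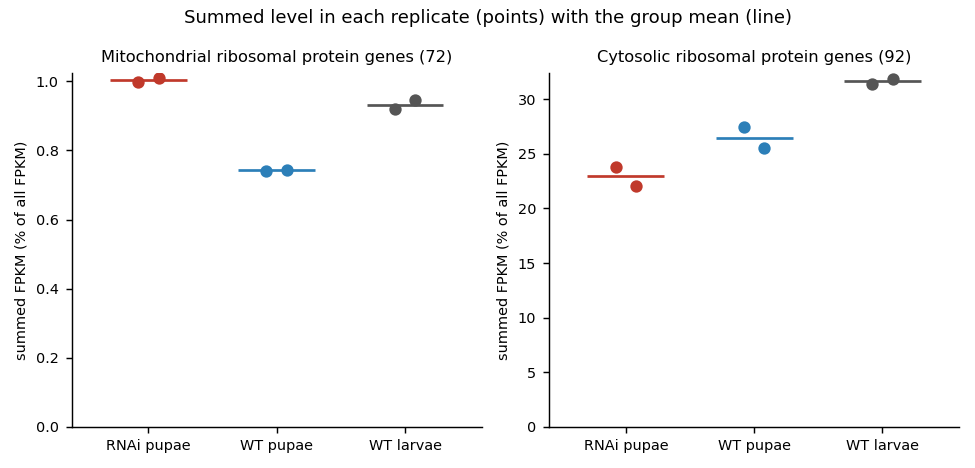
Summed FPKM of the 72 mitochondrial (left) and 92 cytosolic (right) ribosomal protein genes as a percentage of all FPKM in each replicate (points), with the group mean (line), for med27 RNAi pupae, wild-type (WT) pupae and wild-type larvae; both axes start at 0. The mitochondrial share was lowest in wild-type pupae, at 0.741 and 0.744%, and the cytosolic share was lowest in RNAi pupae, at 23.8 and 22.1%.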

How the data were processed

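Each of 10 samples has a gene table of FPKM with confidence bounds that the authors deposited, made with Cufflinks per the file headers. Tools named in the submitters' processing notes, without roles, are DESeq 1.8.3, HTSeq, Cufflinks 1.3.0, TopHat 1.4.1 and BWA 0.6.1. No genome build is given in the sources used here, and coordinates are those of the files, counted from 1. The authors also deposited 2 DESeq tables, whose adjusted p-value, ratio of base means (a signal of size-factor-scaled counts), and log2 of that ratio are the authors' own, per the file headers. The number of genes tested behind them was inferred from their smallest p-value and its adjusted p-value.

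From there, technical runs were averaged (the SD of their log2 difference over these genes was 0.0488 to 0.0628), and log2(FPKM + 1) of the 6992 of 14210 genes with a mean of at least 1 FPKM was fitted with limma 3.58.1 in R 4.3.3. The fit held 3 groups (n = 2 each, 3 residual degrees of freedom), with an intensity trend and Benjamini-Hochberg adjustment, two-sided. The log2 scale with a pseudocount understates changes of low genes. Fragments behind a value came from the upper bound, N = (2F/(upper bound - F))², where F is the FPKM, and errors from them cover counting only.

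Length trends were removed per replicate by lowess (span 0.3) on log2 transcript length over the other genes, for 6830 kept genes. Lengths were taken by gene ID from the BDGP6.54 annotation, and for 2 members, mRpS5 and mRpS34, by symbol. The scripts were tested on simulated data. Named genes were the 4 most negative and 4 most positive in each comparison, the highest 3 and lowest 2 of each subunit, called genes of the minority direction, 17 genes by role and those nearest the threshold. The members, lists and tests were chosen with earlier results of these data known. Of 72 names in the other lists 4 were not matched and are not used here. Promoter and protein sequences were not analysed here. Tables and plots were made with matplotlib 3.10.9, numpy 2.4.6 and pandas 2.3.3 under Python 3.11.15.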

Additional observations from a re-analysis of the deposited data

How the results depend on the processing

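With 2 replicates in each group no outlying sample could be tested, and larval libraries, with fewer fragments, carry more counting error. Removing the length trend gave 20 lower and 2 higher (median -0.13) in wild-type pupae against larvae, 2 lower and 18 higher (0.15) in RNAi against wild-type pupae, and 10 lower and 11 higher in RNAi pupae against larvae, where the median was 0.03 in place of -0.06. The cause of the trend was not tested. With it removed, signs turned for 17 genes in wild-type pupae against larvae, of which 10 were called as deposited and 1, mRpL55 (0.29), was called with it removed. Among the others were mRpL33 (0.12), mRpL11 (0.01), mRpS11 (0.04) and mRpS6 (0.39). Signs turned for 13 genes in RNAi against wild-type pupae, of which 3 were called as deposited, among them mRpL20 (-0.08) and mRpL33 (-0.03), and for 13 uncalled genes in RNAi pupae against larvae. Adding the replicate block left these named values as they were, and mRpS6 was then called higher (adjusted p = 0.0221, against 0.0886 without the block).

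Same-numbered replicates did not deviate together (correlations of -0.0256, -0.104 and -0.0572 between groups). With 2 replicates in each group this cannot exclude that the numbers mark a shared culture or day, which the labels do not state. The replicate block gave 59 lower and 1 higher in wild-type pupae against larvae, 1 lower and 44 higher in RNAi against wild-type pupae, and 11 lower and 3 higher in RNAi pupae against larvae. The replicate block with the length trend removed gave 16 lower and 3 higher (median -0.13), 2 lower and 15 higher (0.15), and 8 lower and 10 higher (0.03) in the same order. A block with the larval numbers crossed, added after seeing the data, gave 21 lower and 3 higher in RNAi pupae against larvae.

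Quantile normalization gave medians of -0.38, 0.25 and -0.14 in that order, and 2 lower and 28 higher in RNAi against wild-type pupae. Median-ratio scaling gave 2 lower there, with a median of 0.33. For RNAi pupae against larvae, 9 genes were lower without the filter, 9 lower and 1 higher without the intensity trend, and 1 higher with only the compared groups in the fit. In that comparison quantile normalization gave 27 lower and 2 higher, and median-ratio scaling 26 and 2. Leaving out 1 replicate at a time gave 49 to 63 lower and 0 to 1 higher (median -0.55 to -0.41) in wild-type pupae against larvae, 1 lower each time and 24 to 54 higher (0.38 to 0.45) in RNAi against wild-type pupae, and 3 to 20 lower and 0 to 10 higher (-0.14 to -0.01) in RNAi pupae against larvae. In the pupal groups, using run 1 or run 2 alone, and pseudocounts of 0.1 or 5, changed no count by more than 1.5 times.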
